A study of Mus musculus with 9 samples.

Results

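Rab genes encode small GTPases of membrane trafficking, and the family was taken here as every gene symbol in the deposited tables made of Rab, a number and at most 1 lower-case letter. This gave 57 of the 24054 genes listed. Rab1 is the tables' name for Rab1a, Rab39 that for Rab39a and Rab9 that for Rab9a. Rab29, listed as Rab7l1, falls outside the rule and was not counted.

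A Rab protein works as a switch: bound to GTP it sits on a membrane and recruits effectors such as tethers, motors and sorting proteins, and bound to GDP it is returned to the cytosol. Guanine nucleotide exchange factors switch Rab proteins on, GTPase-activating proteins switch them off, and a lipid tail added by geranylgeranyl transferase anchors them until GDP dissociation inhibitor extracts them. Each compartment carries its own set of Rab proteins, so that in dendritic cells they mark the route of an antigen from uptake through early and late endosomes to lysosomes, the recycling of surface receptors, the transport of newly made proteins through the Golgi and the release of stored or secreted cargo.

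RNA was sequenced from 9 libraries of splenic type 2 dendritic cells (cDC2) of C57BL/6 mice that carried Cre at both Clec9a alleles and a Cre-dependent tdTomato (TOM) reporter at both Rosa alleles, a genotype shared by all groups. Descendants of cells that once expressed Clec9a, a receptor gene of dendritic cell progenitors, are TOM+, and cells without this history or without recombination are TOM-. The groups were TOM+ cDC2 of postnatal day 8 (young TOM+ cDC2), TOM- DC2 of postnatal day 8 (young TOM- DC2) and TOM+ cDC2 of mice aged 9 weeks (replicate 1) or 8 weeks (replicates 2 and 3), called adult TOM+ cDC2, with 3 libraries each, all sorted as live single cells without autofluorescence that were positive for MHCII, CD11c and CD11b. The study compared cells of different origin at one age and cells of like label at different ages, and calls its libraries biological replicates. Per its methods, spleens of the young mice were pooled to gain more sorted cells, so a young library stands for a pool of mice. Pooling is not stated for adult mice. The p-values thus measure the spread between such libraries, which in the young groups is not that between single mice.

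Libraries held 12783252 to 22809401 reads assigned to genes. Of 10 cDC2 markers none was at 0, 7 were higher and 2 lower in adult cells in each age comparison, and their summed level was 61571 to 65769 TPM (transcript abundance scaled to a fixed total per library) in young TOM+ cDC2, 58628 to 63453 TPM in young TOM- DC2 and 92464 to 95471 TPM in adult cells. Of the 7, Esam, a marker of 1 cDC2 subset, had group means of 19, 28.4 and 80 TPM (edgeR adjusted p = 7.2e-06 and 5.8e-05 against adult cells). The paper reports a slightly lower share of ESAM-high cells at this age than in adults. It allows that small differences in subset composition could relate to some age differences. The share of reads outside annotated exons was 8.84% to 12.83% in young and 15.18% to 17.12% in adult libraries. Summed macrophage markers reached 135 to 167, 214 to 266 and 91.6 to 135 TPM in these groups, summed ILC3 markers 3.22 to 3.98, 27.8 to 35.7 and 3.34 to 5.07 TPM, and summed erythroid markers 699 TPM in young TOM- DC2 replicate 1 against 1.39 to 45.8 TPM in the other 8 libraries. Monocyte marker sums did not overlap in any comparison, highest in young TOM+ cDC2 and lowest in adult cells. Sums of type 1 dendritic cell markers, 47.3 to 53.3, 64.8 to 71.2 and 56.9 to 60.5 TPM, did not overlap either. B cell sums were lower in adult cells than in both young groups, with medians of 63.6, 71.4 and 52.2 TPM. T cell sums did not overlap between young TOM- DC2 and adult cells, nor neutrophil sums between young TOM+ cDC2 and adult cells. The part of these differences in the Rab results was not tested. In bulk RNA, fewer cells of a type and less RNA per cell cannot be told apart.

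Most of the family was expressed. Of the 57 genes, 41 reached a mean of at least 1 TPM over the 9 libraries, 15 of them at least 100 TPM, and 16 stayed under 1 TPM. The highest means were those of Rab7 (480 TPM), which drives late endosomes to lysosomes, Rab8a (438 TPM), which serves delivery to the cell surface, Rab1b (274 TPM), which serves transport from the endoplasmic reticulum to the Golgi, and Rab4b (185 TPM), which serves fast recycling. Rab2a (156 TPM), Rab14 (151 TPM), Rab1 (136 TPM) and Rab8b (134 TPM) followed, and these 8 genes held 57.2% of all Rab TPM. TPM corrects for transcript length, so these levels can be compared between genes. For Rab7 the authors' transcript model was only 624 bases long and the expected counts were 2.16 times the uniquely assigned reads, so its rank is uncertain. The same ratio was 3.737 for Rab11b, 2.603 for Rab5b and 1.555 for Rab5a, whose levels depend on how reads shared with near copies were divided.

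At the other end, 5 genes had at most 3 reads in every library (Rab3c, Rab9b, Rab27b, Rab42 and Rab44), and Rab3c had none. With Rab17 and Rab40b these were the 7 members whose average count stayed under 1 and which were not tested. Rab27b, Rab3b and Rab3c, the secretory forms of other cell types, were thus at or near 0 beside their detected relatives Rab27a (21.3 TPM) and Rab3d (11.2 TPM), as were the epithelial forms Rab17 and Rab25. The 50 tested members are all further counts' denominator.

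**Figure D1:**
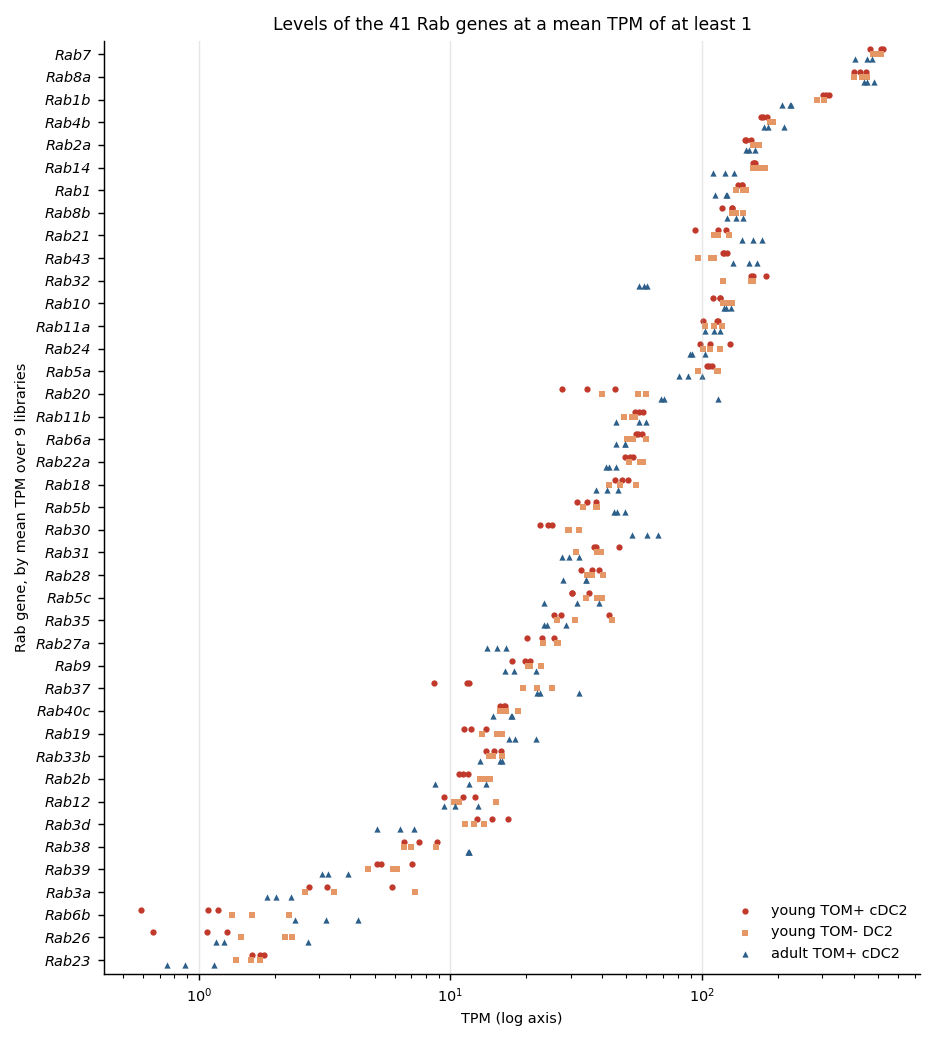
Levels of the 41 Rab genes with a mean of at least 1 TPM, 1 row a gene, with TPM on a log axis and 1 symbol for each of the 9 libraries (circles, young TOM+ cDC2, squares, young TOM- DC2, triangles, adult TOM+ cDC2). Rab7 and Rab8a lie at the top between 400 and 525 TPM, and the groups separate visibly at Rab32, Rab30, Rab20, Rab37, Rab3d and Rab6b.

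The summed level of the family in TPM differed little. It was 3526, 3381 and 3430 TPM in young TOM+ cDC2, 3549, 3477 and 3471 TPM in young TOM- DC2 and 3252, 3224 and 3421 TPM in adult TOM+ cDC2. The adult libraries overlapped with young TOM+ cDC2 and lay below all young TOM- DC2 (two-sided exact permutation p = 0.2 and 0.1, where 0.1 is the smallest that 3 against 3 libraries can give). By compartment, the 6 late endosome and lysosome genes summed to 693 ± 38.9 TPM (SD, n = 3) and 669 ± 10.8 TPM in the young groups and to 532 ± 34.4 TPM in adult cells, with no overlap (exact permutation p = 0.1 in each comparison). The 16 genes of the endoplasmic reticulum and Golgi summed to 902 ± 2.18, 891 ± 10.5 and 850 ± 6.43 TPM, again with all adult libraries lowest (exact permutation p = 0.1 in each comparison). The sums of the 9 secretory genes, 53.5 ± 4.97, 66.8 ± 5.57 and 51.1 ± 5.5 TPM, were the only compartment in which the young groups did not overlap (exact permutation p = 0.1). Here adult cells lay below TOM- DC2 but overlapped with TOM+ cDC2 (exact permutation p = 0.1 and 0.5). Among these genes, Rab37 had group means of 10.7, 22.3 and 25.7 TPM and was the only one called between the young groups. Rab27a (23, 25.5 and 15.3 TPM) and Rab3d (14.8, 12.5 and 6.21 TPM) were instead lowest in adult cells. Sums without Rab37 were not compared. The 13 of recycling and surface delivery summed to 1217 ± 24.6, 1261 ± 25.2 and 1237 ± 63.7 TPM, and the 9 of early endosomes and uptake to 525 ± 22.8, 555 ± 21.6 and 580 ± 39.7 TPM. TPM sums do not carry the TMM scaling between libraries that the tests used. Its factors were 1.025 to 1.0849 in young and 0.8938 to 0.9275 in adult libraries. Relative to TPM, that scaling raises adult values over young ones, and the sums were not compared under it. The median log2 fold change of the endoplasmic reticulum and Golgi genes against adult cells was -0.15 and -0.06, lower in young cells, unlike their sums. That of the 4 tested late endosome and lysosome genes was -0.02 and -0.00, with Rab32 called higher in young and Rab38 higher in adult cells. Within their sums, Rab32 measured 165, 146 and 58.6 TPM and Rab7, which was not called, 501, 495 and 443 TPM (group means).

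Between the young groups, the comparison of origin, Rab37 was the single family member that passed the test. Rab37, a GTPase of secretory granules and vesicle release, measured 11.6, 8.61 and 11.8 TPM in young TOM+ cDC2 and 22.1, 19.5 and 25.4 TPM in young TOM- DC2, with no overlap. It was 2.08-fold lower in TOM+ cells (log2 fold change -1.05 ± 0.16 SE, n = 3 a group, edgeR quasi-likelihood test with Benjamini-Hochberg adjustment over all genes, adjusted p = 0.0042). Adult TOM+ cDC2 held 22.6, 22 and 32.5 TPM, of which the first 2 lay within and the last above the range of the TOM- cells, 2.65-fold above young TOM+ cDC2 (log2 fold change -1.41 ± 0.17, edgeR adjusted p = 3.7e-05). Young TOM- DC2 and adult cells did not differ past the threshold (-0.35 ± 0.16, edgeR adjusted p = 0.1), although with the young libraries paired by number they did (-0.37, adjusted p = 0.041). The summed ILC3 markers were 3.22 to 3.98 TPM in young TOM+ cDC2, 27.8 to 35.7 TPM in young TOM- DC2 and 3.34 to 5.07 TPM in adult cells. Their part in the Rab37 result was not tested. Without young TOM- DC2 replicate 1, the library with erythroid RNA, the difference between the young groups was -1.10 (edgeR adjusted p = 0.0078). Rab37 lies at chr11:115091431-115162236 (mm10, plus strand), and its exons overlap those of no other GENCODE gene.

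The other 49 tested members did not pass, so that 1 of 50 (2%) was called beside 1.60% of all 14452 genes tested (0.125% higher in young TOM+ cDC2, 1.47% higher in young TOM- DC2, and 1.18% called with a log2 fold change beyond 1, as Rab37 was). The median log2 fold change was -0.07 over the members and 0.00 over all genes. Rab26, the closest relative of Rab37 and also a granule GTPase, measured 1.3, 1.08 and 0.66 TPM against 2.34, 2.2 and 1.47 TPM, which did not overlap but did not pass (-1.04 ± 0.40, edgeR adjusted p = 0.37). Rab6b, a Golgi form best known from neurons, stood at -0.91 ± 0.27 (edgeR adjusted p = 0.17) and Rab20, a GTPase of phagosomes and early endosomes, at -0.51 ± 0.24 (edgeR adjusted p = 0.54). With the young libraries paired by number, neither passed (-0.94 and -0.51, edgeR adjusted p = 0.071 and 0.16), although Rab20 was lower in TOM+ cDC2 in each pair. With a block over all name numbers, whose adult libraries did not deviate with the young ones, Rab20 (-0.50), Rab6b (-0.94), Rab30 (-0.32) and Rab43 (0.24) passed as well (edgeR adjusted p = 0.003, 0.0075, 0.025 and 0.013). Rab33a, a Golgi and secretory vesicle form, had 2, 1 and 3 reads against 6, 10 and 11 and did not pass (-2.15 ± 0.70, edgeR adjusted p = 0.24).

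With age the family moved in both directions. Both age comparisons use the same adult libraries, and young libraries with the same number in their deposited names deviated together. These comparisons are thus not independent of each other. In young TOM+ cDC2 against adult TOM+ cDC2, 22 of 50 members differed, 44% beside 40.6% of all genes, with 8 higher in young cells (21% of all genes) and 14 higher in adult cells (19.5% of all genes). In young TOM- DC2 against the same adult libraries, 19 of 50 differed, 38% beside 36.3% of all genes, with 9 higher in young cells (19.4% of all genes) and 10 higher in adult cells (16.9% of all genes). Beyond 1 on the log2 scale lay 7 members (14%, beside 12.8% of all genes) and 6 members (12%, beside 11.3%). The shares of members called were thus near the background of all genes. Among genes averaging 10 or more reads they were 48.8% and 41.9%, beside 48.8% and 44.2% of all genes.

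The median log2 fold change of the members was -0.09 and 0.01 in these comparisons, and that of all genes 0.05 and 0.07. Scaling matters for the small differences: on log2(TPM + 0.1) the median of all genes rose to 0.17 and 0.22 and the split of Rab calls to 10 higher in young and 10 higher in adult cells, and to 13 and 7. In DESeq2 the latter split was 6 and 13. No member called by edgeR changed its sign under any of the 19 alternatives tried. On the TPM scale the calls of Rab8a, Rab8b, Rab10 and Rab4b, all of 0.26 or less, were lost against TOM+ cDC2. Of the 22 and 19 calls, 14 and 8 held in every alternative. Without young TOM- DC2 replicate 1 the counts were 22 and 16, and without young TOM- DC2 replicate 2 the latter was 11.

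**Figure D2:**
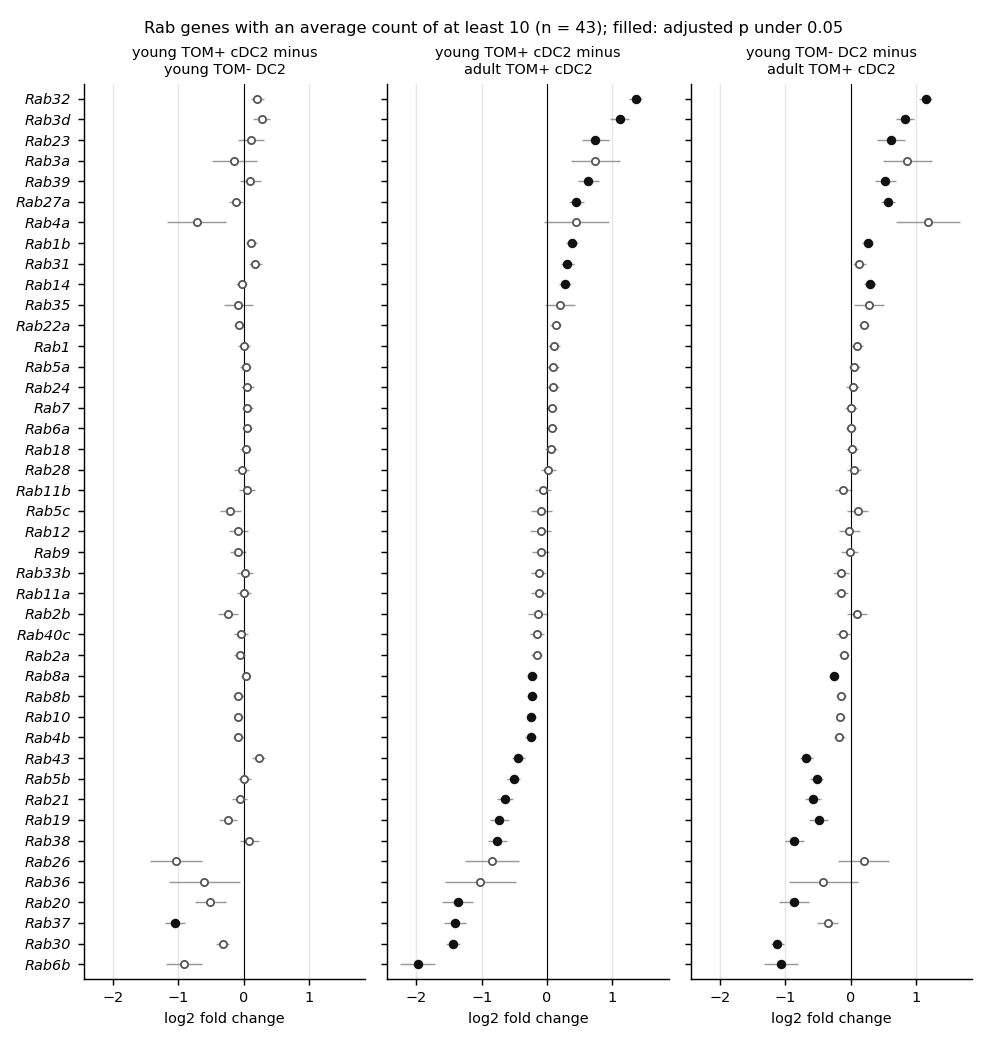
Log2 fold changes with standard errors (whiskers) in the 3 comparisons for the 43 Rab genes averaging 10 or more reads, 1 row a gene, positive where the group named at the top of the panel was higher. Filled circles passed an adjusted p of 0.05 in edgeR, with only Rab37 filled between the young groups. Against adult cells, Rab30 and Rab6b lie at the lower end in both panels. Rab32 and Rab3d lie at the upper end with TOM+ cDC2. With TOM- DC2 the unfilled Rab4a (1.18) and Rab3a (0.87) lie above Rab32 (1.15) and Rab3d (0.83), respectively.

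Of the 15 members with a mean of at least 100 TPM, Rab32 had the largest fold change in both age comparisons. It measured 179, 160 and 157 TPM in young TOM+ cDC2, 159, 157 and 121 TPM in young TOM- DC2 and 59, 56.3 and 60.4 TPM in adult TOM+ cDC2. All 6 young libraries lay above all adult ones, with log2 fold changes of 1.36 ± 0.10 (2.58-fold, edgeR adjusted p = 1.2e-06) and 1.15 ± 0.10 (2.23-fold, edgeR adjusted p = 5e-06). Rab32 directs cargo to lysosome-related organelles and acts at phagosomes that hold bacteria, and lies at chr10:10545002-10558265 (minus strand).

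Rab38, its close paralog, which shares the role in lysosome-related organelles, went the other way. It measured 7.49, 6.53 and 8.87 TPM, then 8.78, 6.95 and 6.55 TPM, and 11.8, 11.7 and 11.9 TPM in adult cells. It was lower in young cells by 1.69-fold (-0.76 ± 0.15, edgeR adjusted p = 0.0015) and by 1.81-fold (-0.86 ± 0.15, edgeR adjusted p = 0.00084), and no young library reached an adult one. The ratio of Rab32 to Rab38 TPM was 22 ± 3.75 in young TOM+ cDC2, 19.7 ± 2.44 in young TOM- DC2 and 4.96 ± 0.143 in adult cells (SD, n = 3). Of the other late endosomal members, Rab7 measured 501 ± 32, 495 ± 18.2 and 443 ± 35.2 TPM and Rab9, which returns receptors from late endosomes to the Golgi, 19.3 ± 1.68, 21.4 ± 1.46 and 18.7 ± 2.79 TPM. Neither passed the test in any comparison.

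**Figure D3:**
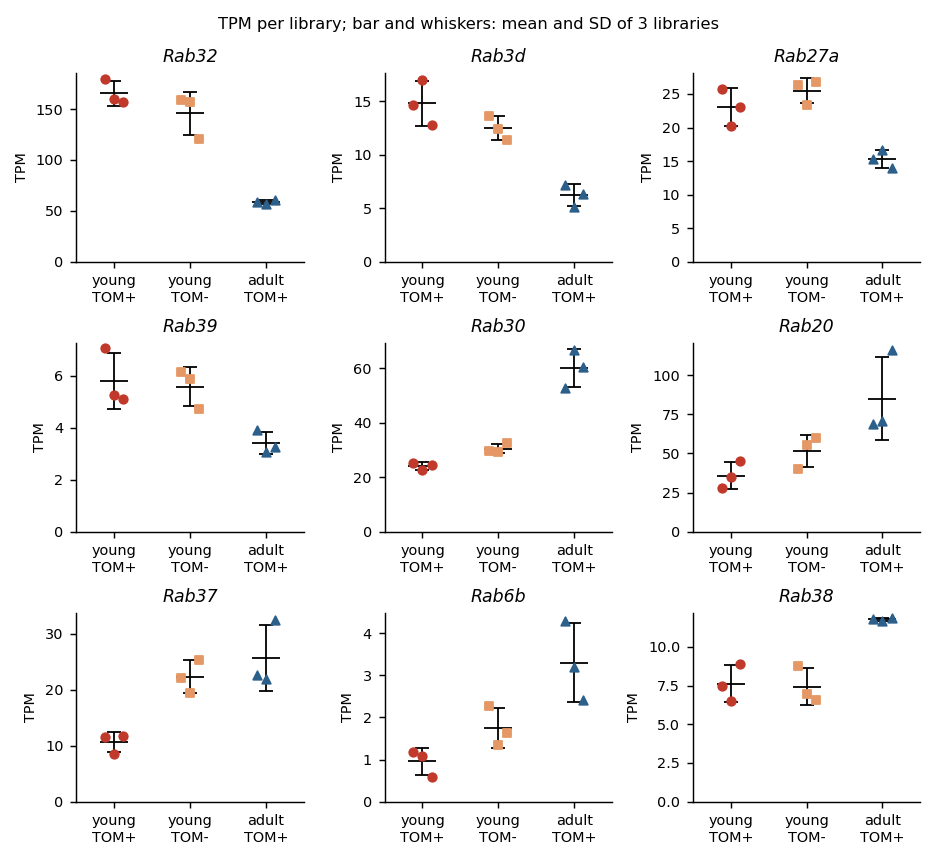
TPM of 9 Rab genes in each of the 9 libraries, with the mean and SD of 3 libraries a group as bar and whiskers and axes that start at 0. Rab32, Rab3d, Rab27a and Rab39 are higher in both young groups, Rab30, Rab20, Rab6b and Rab38 higher in adult cells, and Rab37 is lowest in the 3 young TOM+ cDC2 libraries.

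The windows around the start sites of a few of these genes, from 250 bases before to 50 bases after the start, are shown as RefSeq gives them for GRCm38.p6, the build of mm10, so that members that moved in opposite directions can be set side by side. Rab32 and Rab3d were higher in young cells, Rab20 and Rab6b in adult cells. Capitals mark matches, on either strand, to 6 short motifs chosen after the values were seen: the E-box CACGTG, the AP-1 site TGANTCA, the PU.1-type ETS site GAGGAAGT, the interferon-stimulated element GAAANNGAAA, the STAT site TTCNNNGAA and the GC box GGGCGG. The windows lie at chr10:10558158-10558457 (minus strand), chr9:21918134-21918433 (minus strand), chr8:11478591-11478890 (minus strand) and chr9:103111824-103112123 (plus strand), in this order.
Rab32: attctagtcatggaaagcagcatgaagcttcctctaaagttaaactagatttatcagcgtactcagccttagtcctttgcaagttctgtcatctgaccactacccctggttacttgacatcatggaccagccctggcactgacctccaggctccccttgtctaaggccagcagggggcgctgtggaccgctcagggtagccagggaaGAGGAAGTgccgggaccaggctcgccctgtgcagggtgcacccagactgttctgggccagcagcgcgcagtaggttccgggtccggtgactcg
Rab3d: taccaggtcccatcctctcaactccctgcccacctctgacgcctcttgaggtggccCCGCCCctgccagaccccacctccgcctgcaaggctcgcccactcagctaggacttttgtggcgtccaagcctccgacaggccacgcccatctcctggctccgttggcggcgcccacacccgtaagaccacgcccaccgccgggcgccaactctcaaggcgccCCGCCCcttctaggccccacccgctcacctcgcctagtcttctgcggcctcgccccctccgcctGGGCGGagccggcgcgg
Rab20: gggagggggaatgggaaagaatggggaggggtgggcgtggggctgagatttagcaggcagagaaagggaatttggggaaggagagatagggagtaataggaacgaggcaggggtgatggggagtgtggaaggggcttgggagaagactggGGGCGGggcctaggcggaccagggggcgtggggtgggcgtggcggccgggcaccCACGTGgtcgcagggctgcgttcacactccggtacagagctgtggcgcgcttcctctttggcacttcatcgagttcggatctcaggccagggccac
Rab6b: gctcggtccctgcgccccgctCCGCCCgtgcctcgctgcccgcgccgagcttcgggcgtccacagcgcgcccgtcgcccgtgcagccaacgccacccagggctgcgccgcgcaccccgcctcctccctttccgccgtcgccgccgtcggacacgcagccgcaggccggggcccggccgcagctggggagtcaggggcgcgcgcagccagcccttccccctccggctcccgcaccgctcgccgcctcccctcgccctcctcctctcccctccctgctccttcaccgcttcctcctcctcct

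The Rab32 window held 1 match, the ETS site, which 3.2% of all 32851 windows of this length hold. Rab20 held the E-box (7.15% of all windows) and a GC box, Rab3d 3 GC boxes and Rab6b 1 GC box. GC content was 57.3% for Rab32, 71% for Rab3d, 64.3% for Rab20 and 78.7% for Rab6b. Windows were at hand for 47 of the 57 members, 59 in all, and 41 of these (69.5%) held a GC box beside 35.7% of all windows. The interferon-stimulated element occurred in the window of Rab19 alone among the members. Such matches describe the letters and are no measure of binding.

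Among the 16 genes of the endoplasmic reticulum and Golgi, 2 were higher in young and 5 higher in adult cells with TOM+ cDC2, and 3 and 5 with TOM- DC2. These calls made up 43.8% and 50% of the 16, beside 40.6% and 36.3% of all genes. Rab30, a Golgi GTPase linked to the handling of intracellular bacteria, measured 25.4, 22.7 and 24.4 TPM and 29.7, 29.3 and 32.5 TPM in young cells and 52.8, 66.8 and 60.4 TPM in adult cells. It was 2.72-fold and 2.18-fold lower in young cells (-1.44 ± 0.10 and -1.12 ± 0.10, edgeR adjusted p = 1.1e-06 and 8.1e-06), the smallest adjusted p of the family members higher in adult cells in both comparisons. Rab43, which acts at the Golgi and is known from antigen cross-presentation by dendritic cells, measured 126, 122 and 121 TPM, 109, 96.6 and 112 TPM, and 153, 166 and 133 TPM in adult cells. It was lower in young cells by 1.36-fold and 1.6-fold (-0.44 ± 0.10 and -0.68 ± 0.10, edgeR adjusted p = 0.0037 and 0.00025).

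Rab19, the closest relative of Rab43, moved the same way at a lower level. It measured 11.3, 12.1 and 13.8 TPM, 15.3, 13.4 and 16.1 TPM, and 18, 17.1 and 21.9 TPM in adult cells (-0.73 ± 0.14 and -0.49 ± 0.14, edgeR adjusted p = 0.0015 and 0.017). The latter call was lost without young TOM- DC2 replicate 2 or adult replicate 3 (adjusted p = 0.064 and 0.073). Rab6b measured 1.19, 1.09 and 0.59 TPM, 2.28, 1.35 and 1.63 TPM, and 4.29, 3.19 and 2.42 TPM in adult cells (-1.98 ± 0.27 and -1.07 ± 0.26, edgeR adjusted p = 0.00011 and 0.0061). On log2(TPM + 0.1) the call against TOM- DC2 was lost (-0.87, limma adjusted p = 0.058). Its abundant paralog Rab6a, which carries vesicles from the Golgi, stayed at 55.9 ± 1.42, 54.5 ± 4.93 and 48.2 ± 2.46 TPM and did not pass. The ratio of Rab6a to Rab6b TPM was 64.2 ± 26, 32.1 ± 5.53 and 15.4 ± 4.57.

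In the opposite direction went Rab39, a GTPase of phagosome acidification and Golgi traffic. It measured 7.06, 5.28 and 5.12 TPM, 6.15, 5.9 and 4.72 TPM, and 3.9, 3.09 and 3.26 TPM in adult cells, 1.55-fold and 1.45-fold higher in young cells (0.63 ± 0.16 and 0.53 ± 0.16, edgeR adjusted p = 0.0086 and 0.024). The call against TOM- DC2 was lost without young TOM- DC2 replicate 1 or 2 or adult replicate 2 or 3 (adjusted p = 0.06, 0.084, 0.07 and 0.076). Its paralog Rab39b had 2, 2 and 4 reads and 1, 3 and 4 reads in the young groups and 8, 7 and 18 reads in adult cells. It passed in both comparisons (-2.50 ± 0.61 and -2.48 ± 0.61, edgeR adjusted p = 0.0058 and 0.0071), on few reads. With a block over all name numbers it passed in neither (edgeR adjusted p = 0.066 and 0.062). Rab1b was higher in young cells (311 ± 8.66 and 293 ± 11 against 219 ± 9.61 TPM, 0.38 ± 0.09 and 0.26 ± 0.09, edgeR adjusted p = 0.0042 and 0.033), while Rab1 was not called (0.11 ± 0.09 and 0.10 ± 0.09, edgeR adjusted p = 0.35 and 0.41). Rab1 did pass in both comparisons on log2(TPM + 1) (0.23 and 0.25, limma adjusted p = 0.013 and 0.011) and with a block over all name numbers (0.18 and 0.16, edgeR adjusted p = 0.029 and 0.042). The Rab1b call against TOM- DC2 was lost without young TOM+ cDC2 replicate 3, young TOM- DC2 replicate 2 or 3, or adult replicate 1 or 3 (adjusted p = 0.065, 0.084, 0.15, 0.057 and 0.1). Rab2a, Rab2b, Rab18, Rab33b, Rab34 and Rab36 passed in neither comparison, Rab33b with 14.9 ± 1.01, 15 ± 0.927 and 14.9 ± 1.57 TPM.

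Of the 8 tested genes of early endosomes and uptake, 1 was higher in young and 3 higher in adult cells with TOM+ cDC2, and 0 and 3 with TOM- DC2. These calls made up 50% and 37.5% of the 8, beside 40.6% and 36.3% of all genes. Rab20 measured 27.7, 34.9 and 44.9 TPM, 39.9, 55.4 and 59.6 TPM, and 68.8, 70.5 and 116 TPM in adult cells. The groups did not overlap between ages, though adult replicate 3 stood high. The log2 fold changes were -1.37 ± 0.24 (2.59-fold, edgeR adjusted p = 0.00065) and -0.86 ± 0.23 (1.81-fold, edgeR adjusted p = 0.013), and without adult replicate 3 the latter was -0.60 with an adjusted p of 0.068.

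Rab21, which controls integrin uptake and early endosomes, measured 116, 125 and 93.5 TPM, 116, 128 and 112 TPM, and 173, 144 and 159 TPM in adult cells. All adult libraries lay above the young ones (-0.64 ± 0.12 and -0.58 ± 0.12, edgeR adjusted p = 0.00081 and 0.0018). The early endosome GTPase Rab5 has 3 forms. Rab5b was higher in adult cells, at 46.7 ± 2.36 against 34.9 ± 2.99 and 36.5 ± 2.62 TPM (-0.51 ± 0.10 and -0.52 ± 0.10, edgeR adjusted p = 0.0015 and 0.0016). Rab5a (107 ± 2.39, 109 ± 11.3 and 89.9 ± 9.45 TPM) and Rab5c (32.1 ± 3.04, 37.6 ± 2.8 and 31.4 ± 7.69 TPM) were not called in edgeR, though on the TPM scale Rab5a passed against TOM- DC2 (0.28, limma adjusted p = 0.043). The Rab5b calls held in all 19 alternatives, including the expected counts, which divide its shared reads.

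Rab31, of endosome to Golgi traffic and exosomes, was higher in young TOM+ cDC2 (40.6 ± 5.36 against 29.9 ± 2.29 TPM, 0.31 ± 0.10, edgeR adjusted p = 0.026), a call lost without young TOM+ cDC2 replicate 1 and without adult replicate 1 or 2 (adjusted p = 0.1, 0.06 and 0.087). In young TOM- DC2 it stood at 0.13 ± 0.10 (edgeR adjusted p = 0.34). Its relative Rab22a, of early endosomes and recycling tubules, measured 51.4 ± 1.97, 55.5 ± 3.82 and 43.3 ± 2.01 TPM without a call (0.13 ± 0.08 and 0.21 ± 0.08, edgeR adjusted p = 0.2 and 0.059). With the young libraries paired by number, Rab22a passed against TOM- DC2 (0.21, edgeR adjusted p = 0.049), and on log2(TPM + 1) it passed in both comparisons (0.24 and 0.35, limma adjusted p = 0.024 and 0.0045). Rab24, linked to autophagy, did not pass. It shares 66.4% of its exon bases with Prelid1, so that reads counted without strand cannot be told apart there. In all, 10 members share exon bases with another gene of the count tables, among them Rab6a with Mrpl48 (11.7%), Rab5a with Pp2d1 (9.34%) and Rab7 with Gm5577 (7.82%). Other members overlap annotated genes that the count tables do not list. Among them are Rab4b (85.2% of exon bases), Rab43 (77.3%), Rab2b (70.9%), Rab20 (25.6%) and Rab39b (18.6%). In these counts, reads of the shared bases cannot be told apart.

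Called changes of abundant genes of recycling and delivery to the surface were small. Of these 13 genes, 1 was higher in young and 4 higher in adult cells with TOM+ cDC2, and 2 and 1 with TOM- DC2. These calls made up 38.5% and 23.1% of the 13, beside 40.6% and 36.3% of all genes. Rab14, which moves cargo between the Golgi and endosomes, measured 161 ± 1.84 and 168 ± 8.95 TPM in young and 123 ± 11.5 TPM in adult cells (0.27 ± 0.09 and 0.30 ± 0.09, edgeR adjusted p = 0.024 and 0.015). The first call was lost without young TOM+ cDC2 replicate 2 or 3 or adult replicate 1 or 2 (adjusted p = 0.082, 0.097, 0.054 and 0.085) and the second without young TOM- DC2 replicate 2 or adult replicate 2 (adjusted p = 0.067 and 0.058). The 4 members higher in adult cells, Rab8a, Rab8b, Rab10 and Rab4b, had log2 fold changes of -0.23 to -0.25 against TOM+ cDC2, and the TPM of Rab8a, Rab8b and Rab4b overlapped between the groups. Each of these 4 calls was lost without young TOM+ cDC2 replicate 1 (adjusted p = 0.051, 0.081, 0.062 and 0.071) or replicate 2 (0.09, 0.12, 0.067 and 0.057). That of Rab8a was also lost without adult replicate 1 (0.054), that of Rab8b without adult replicate 1 or 3 (0.081 and 0.073) and that of Rab4b without adult replicate 3 (0.087). Against TOM- DC2 edgeR called Rab8a at -0.26 ± 0.07 (adjusted p = 0.014, and 0.053 without young TOM- DC2 replicate 2). DESeq2 also called Rab10, Rab4b and Rab8b there (-0.18, -0.20 and -0.17, adjusted p = 0.012, 0.041 and 0.041). Rab8a measured 450, 402 and 426 TPM, 452, 400 and 433 TPM, and 453, 442 and 482 TPM in adult cells. Rab11a (111 ± 8.12, 112 ± 8.53 and 111 ± 7.68 TPM) and Rab11b, the GTPases of the recycling endosome, and Rab12, Rab15, Rab25 and Rab35 were not called, Rab15 and Rab25 with at most 4 reads a library. Rab4a, the scarce relative of Rab4b, had 15, 19 and 27 reads in young TOM- DC2 against 8, 7 and 3 in adult cells (1.18 ± 0.49, edgeR adjusted p = 0.079). Rab4a passed among genes averaging 10 or more reads (1.16, edgeR adjusted p = 0.05 after rounding) and on log2(TPM + 1) and log2(TPM + 0.1) (0.58 and 1.21, limma adjusted p = 0.011 and 0.027).

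Of the 6 tested secretory members, 2 were higher in young and 1, Rab37, higher in adult cells with TOM+ cDC2, and 2 and 0 with TOM- DC2. These calls made up 50% and 33.3% of the 6, beside 40.6% and 36.3% of all genes. Rab3d, a GTPase of regulated exocytosis, measured 14.6, 17 and 12.8 TPM, 13.6, 12.4 and 11.4 TPM, and 7.17, 5.12 and 6.33 TPM in adult cells. No adult library reached a young one, with log2 fold changes of 1.11 ± 0.14 (2.15-fold, edgeR adjusted p = 5.9e-05) and 0.83 ± 0.14 (1.77-fold, edgeR adjusted p = 0.00063). Rab27a, which docks lysosome-related organelles and exosome-bearing endosomes at the plasma membrane, measured 25.8, 20.2 and 23.1 TPM, 26.4, 23.3 and 26.8 TPM, and 15.3, 16.7 and 14 TPM in adult cells (0.45 ± 0.11 and 0.57 ± 0.11, edgeR adjusted p = 0.0056 and 0.0014). Rab3a, the synaptic relative of Rab3d, had young values of 5.85, 3.22 and 2.74 TPM and 7.2, 3.45 and 2.65 TPM beside 2.02, 2.32 and 1.86 TPM. It did not pass (0.74 ± 0.38 and 0.87 ± 0.38, edgeR adjusted p = 0.14 and 0.088), but did with the young libraries paired by number (0.67 and 0.80, edgeR adjusted p = 0.034 and 0.015) and, against TOM- DC2, without young TOM- DC2 replicate 3 (1.10, edgeR adjusted p = 0.047). Replicate 1 was the highest library of both young groups for Rab3a.

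Outside these compartments, Rab23, an inhibitor of Hedgehog signalling at the cilium, measured 1.81, 1.75 and 1.63 TPM, 1.61, 1.75 and 1.4 TPM, and 0.75, 0.88 and 1.15 TPM in adult cells (0.74 ± 0.21 and 0.62 ± 0.21, edgeR adjusted p = 0.014 and 0.037). The call against TOM- DC2 held in 9 of 19 alternatives and was lost on leaving out any library but young TOM+ cDC2 replicate 1 and adult replicate 3 (adjusted p up to 0.12), and that against TOM+ cDC2 was lost without adult replicate 1 (adjusted p = 0.052). Rab28 and Rab40c, which pairs with a ubiquitin ligase, did not pass. Another 2 members were called on few reads between young TOM- DC2 and adult cells. Rab13, of tight junctions and vesicle transport, had 6, 5 and 18 reads against 2, 0 and 0 (3.07 ± 1.10, edgeR adjusted p = 0.045). The ratio was 10.1 with a 95% counting interval of 2.56 to 87.6. The call was lost without any 1 of the young TOM- DC2 libraries (adjusted p = 0.052, 0.056 and 0.15), without adult replicate 2 or 3 (0.12 and 0.14) and without young TOM+ cDC2 replicate 2 (0.054). Rab33a had 6, 10 and 11 reads against 1, 0 and 2 (2.57 ± 0.79, edgeR adjusted p = 0.024). The ratio was 6.29 with an interval of 1.93 to 32.4. The call was lost without young TOM- DC2 replicate 2 or 3 (adjusted p = 0.07 and 0.05) or adult replicate 1 or 2 (0.057 and 0.064). These intervals cover counting error only.

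**Figure D4:**
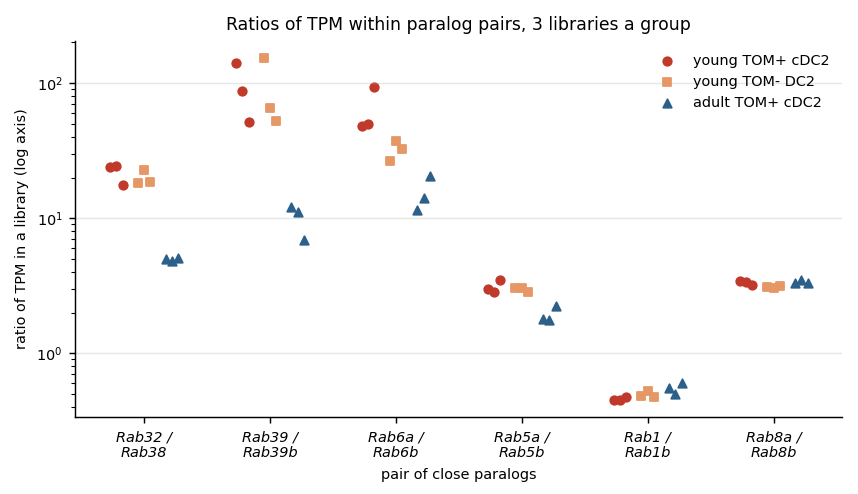
Ratio of TPM within 6 pairs of close paralogs in each library, on a log axis, with circles for young TOM+ cDC2, squares for young TOM- DC2 and triangles for adult TOM+ cDC2. The ratios of Rab32 to Rab38, Rab39 to Rab39b, Rab6a to Rab6b and Rab5a to Rab5b are lower in all 3 adult libraries than in any young library, and those of Rab8a to Rab8b lie between 3.06 and 3.5 throughout.

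The proteins that switch, anchor and read Rab proteins were taken from a list of 149 genes, of which 135 were tested. The list was chosen with earlier results of these data known, so its shares and directions are no independent test. Against adult cells most of those that differed were higher in adults: 16 were higher in young TOM+ cDC2 and 50 in adult cells (48.9% called, beside 40.6% of all genes, 21% and 19.5% by direction), and 10 and 49 for young TOM- DC2 (43.7%, beside 36.3%, 19.4% and 16.9% by direction). The background of all genes holds more genes with few reads. Among genes averaging 10 or more reads, 55.5% and 50.8% of the partners were called, beside 48.8% and 44.2% of all genes. On log2(TPM + 0.1), where 67.9% and 73.9% of the calls over all genes were higher in young cells, the partners split into 21 and 38 and into 18 and 31. Thus 35.6% and 36.7% of their calls were higher in young cells in place of 24.2% and 16.9%. Their median log2 fold change was -0.26 and -0.21, beside 0.05 and 0.07 over all genes. With the young libraries paired by number, 6 partners differed between the young groups (4.44%, beside 2.8% of all genes). In the main fit 3 differed, all higher in TOM- DC2 (2.22%, beside 1.60% of all genes). The 3 were Tbc1d2 (-2.43 ± 0.30, edgeR adjusted p = 0.00087), Appl2 (-0.80 ± 0.14, edgeR adjusted p = 0.0098) and Tbc1d4 (-0.51 ± 0.11, edgeR adjusted p = 0.04). Only 1 partner was called without young TOM+ cDC2 replicate 2 or without young TOM- DC2 replicate 3.

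Among the GTPase-activating proteins, 3 were higher in young TOM+ cDC2 and 14 in adult cells, and 4 and 17 for young TOM- DC2. These calls made up 44.7% and 55.3% of the 38 tested, beside 40.6% and 36.3% of all genes. Tbc1d4, which acts on Rab8a, Rab10 and Rab14, measured 213, 310 and 693 TPM (group means, in the order young TOM+, young TOM- and adult, as for the genes that follow) and was lower in young cells by 1.83 ± 0.11 and 1.32 ± 0.11 on the log2 scale (edgeR adjusted p = 4.2e-07 and 4.7e-06). Tbc1d30, which acts on Rab8, measured 2.63, 4.06 and 16.9 TPM (-2.82 ± 0.23 and -2.20 ± 0.22, edgeR adjusted p = 2.1e-06 and 1.3e-05). Tbc1d8 measured 93.5, 85.7 and 165 TPM (-0.95 ± 0.09 and -1.11 ± 0.09, edgeR adjusted p = 5.5e-06 and 2.6e-06). Tbc1d2, which ends the activity of Rab7, was among the 4 higher in young TOM- DC2, with 0.843 and 0.423 TPM in the TOM+ groups and 4.67 TPM in young TOM- DC2 (3.32 ± 0.35 against adult cells, edgeR adjusted p = 2e-05).

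Of 39 activators, 3 and 13 were higher in young TOM+ cDC2 and in adult cells, and 3 and 15 for young TOM- DC2. These calls made up 41% and 46.2% of the 39, beside 40.6% and 36.3% of all genes. The Rab8 activators Rab3ip and Rab3il1 went apart: Rab3ip measured 12.4, 14.4 and 24.5 TPM (-1.12 ± 0.14 and -0.93 ± 0.13) and Rab3il1 8.62, 6.9 and 2.57 TPM (1.65 ± 0.20 and 1.29 ± 0.20), each past the threshold in both comparisons (edgeR adjusted p of 0.00037 or less). Dennd4a, an activator of Rab10, measured 23.3, 29.6 and 50.6 TPM (-1.32 ± 0.11 and -0.99 ± 0.11), Dennd6b, an activator of Rab14, 3.07, 3.13 and 5.65 TPM (-1.02 ± 0.14 and -0.93 ± 0.14), and Dennd2c 4.34, 3.93 and 1.56 TPM (1.34 ± 0.13 and 1.17 ± 0.13). The subunits of the Rab32 and Rab38 activator, picked after the values were seen, were Hps1 at 48.5, 47.6 and 61.4 TPM (-0.46 and -0.52, both called) and Hps4 at 17.3, 18.3 and 15.4 TPM (0.05 and 0.11, not called).

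Lipid attachment, extraction and phosphorylation held 11 genes, 2 of them higher in young TOM+ cDC2 and 6 in adult cells, and 1 and 5 for young TOM- DC2. These calls made up 72.7% and 54.5% of the 11, beside 40.6% and 36.3% of all genes. Lrrk2, a kinase that phosphorylates Rab8, Rab10 and Rab12, measured 25.8, 22.3 and 74.7 TPM (-1.67 ± 0.20 and -1.92 ± 0.20, edgeR adjusted p = 3.6e-05 and 1.8e-05). Chml, an escort protein for lipid attachment, was higher in young cells (3.64, 2.59 and 1.47 TPM, 1.19 ± 0.22 and 0.64 ± 0.22, edgeR adjusted p = 0.00097 and 0.039). Of 47 tested effectors, 8 were higher in young TOM+ cDC2 and 17 in adult cells, and 2 and 12 for young TOM- DC2. These calls made up 53.2% and 29.8% of the 47, beside 40.6% and 36.3% of all genes. Exoc6b, an exocyst subunit, measured 5.15, 6.07 and 9.66 TPM (-1.04 ± 0.11 and -0.84 ± 0.11, edgeR adjusted p = 1.3e-05 and 7.2e-05).

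**Figure D5:**
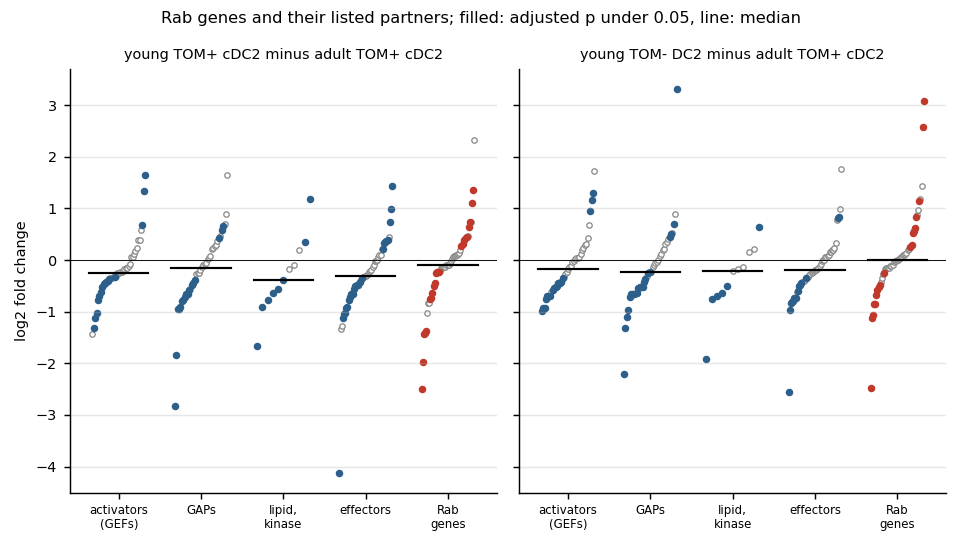
Log2 fold changes of the tested partners of Rab proteins in 4 lists (GEFs, activators, GAPs, GTPase-activating proteins, genes of lipid attachment, extraction and phosphorylation, and effectors) and of the Rab genes, for each young group against adult cells, 1 circle a gene in rising order. Filled circles passed an adjusted p of 0.05 in edgeR and the lines mark medians, which lie below 0 in all 4 lists and at -0.09 and 0.01 for the Rab genes.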

How the data were processed

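Sorted splenic cells were profiled by RNA-seq from SMART-Seq cDNA in 9 libraries, 3 a group, grouped by the labels. Per the labels and the study's methods, the authors aligned single-end reads to mm10 with STAR, which gave the deposited gene counts (used here without strand), and ran RSEM, which gave the deposited expected counts, TPM and FPKM (the last not used here). Versions were not given in the sources used here. Genes with a mean of at least 1 count per library (14452) were tested with the edgeR 4.0.16 quasi-likelihood test (R 4.3.3, TMM scaling, all 9 libraries in 1 fit, Benjamini-Hochberg adjustment, called under 0.05). SE is the standard error of the log2 fold change. Libraries held 12783252 to 22809401 gene reads. Reads outside genes stayed out of library sizes. The fit was tested on simulated data.

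The members and the partner lists were chosen with earlier results of these data known. Described in full were members past both thresholds (adjusted p under 0.05 and log2 fold change beyond 1), up to 8 members a comparison with the largest called change and an average count of at least 50, and their close paralogs. Partners were named if past both thresholds with an average count of at least 50, up to 4 in each direction for each list and comparison. Alternatives were RLE scaling, DESeq2 1.42.0, no filter or an average count of 10, rounded expected counts, limma 3.58.1 on log2(TPM + 1) and log2(TPM + 0.1), only the 2 groups compared, blocks for the numbers in the deposited names, and each library left out. Young libraries with the same number deviated together (r = 0.607, 0.306 and 0.415), so these numbers were treated as pairs in an alternative fit. The main fit had no such block and ignored the pairing. For adult with young libraries of the same number, r was 0.008 to 0.067. Promoters came from RefSeq (GRCm38.p6) and exons from GENCODE vM21.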

Additional observations from a re-analysis of the deposited data

How the results depend on the processing

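No called fold change of a described Rab gene reversed under any alternative: of 604 values called, 565 kept their call and 39 lost it. Between the young groups the count of Rab genes was 1, but 2 on log2(TPM + 1), where Rab33a joined Rab37, and 5 with a replicate block over all name numbers, which added Rab20, Rab6b, Rab30 and Rab43. These counts were 2%, 4% and 10% of the members tested, beside 1.6%, 1.57% and 6.57% of all genes. With a log2 fold change beyond 1 the count was 0 to 1 when each library was left out (0 without young TOM+ cDC2 replicate 2 and without young TOM- DC2 replicate 3). The leave-one-out range of Rab calls was 17 to 22 in young TOM+ cDC2 and 11 to 19 in young TOM- DC2 against adult cells (11 without young TOM- DC2 replicate 2). Beyond 1 on the log2 scale, TOM- DC2 gave 3 to 6 (3 without young TOM- DC2 replicate 2) and 1 on log2(TPM + 1), where input, scaling, pseudocount and model all differ and the cause was not tested. Rab partners between the young groups numbered 3, against 5 in DESeq2, 6 with the replicate block over young pairs, 17 with the block over all name numbers, and 1 to 4 leaving out each library. The first 4 counts were 2.22%, 3.7%, 4.44% and 12.6% of the partners tested. The share of all genes called rose as well, from 1.6% to 2.55%, 2.8% and 6.57%. The block over young pairs added calls of Rab37, Rab22a and Rab3a given with these genes and changed no other call of a described Rab gene. Members with under 10 reads a library on average are limited by depth, and with 3 libraries a group an exact permutation p cannot go below 0.1.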
